A study of Mus musculus with 8 samples.

Results

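The genes described here are a fixed set of 55 genes of mitosis and of DNA replication, found by symbol in the annotation of a mouse gene array. Of these, 54 had a probe set that carries a single gene symbol, 25 of them with roles in mitosis and 29 with roles in replication, among 19938 genes measured. Ccnb1 was not analysed here. Top2a, Pcna and Tk1 had several probe sets, of which the brightest on average was taken. The cells were mouse embryonic fibroblasts (MEFs) of FVB/N background, and all of them carried the Daxx knockout. In 4 samples Daxx had been put back, 2 under the name DaxxA and 2 under the name DaxxB, and 4 samples had received a vector. The labels give neither the meaning of A and B, nor whether the samples are separate cultures, clones or repeat preparations, so the spread behind each p-value may be that of repeat preparations. The study asked which genes lie downstream of Daxx, a chaperone of the histone variant H3.3.

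A dividing cell copies its DNA once in S phase and parts the copies in mitosis. E2F factors switch on the genes for origin licensing, nucleotide supply and the replication fork around the start of S phase, and a second wave, driven by the MuvB complex with B-Myb and Foxm1, brings the cyclins, kinases, motors and kinetochore proteins of mitosis. Fibroblasts in culture use both waves while they proliferate and lower them when they leave the cycle. In RNA from a whole culture, fewer cycling cells and less RNA per cycling cell cannot be told apart.

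Values are log2 signals, so a difference of 1 is a doubling, and each change is the Daxx mean less the vector mean, given with its standard error (SE). A gene was called when its p from limma, adjusted by the Benjamini-Hochberg method over all 19938 genes, was below 0.05. Vector replicate 2 stood apart from the other arrays, with an interquartile range of 2.79 against 3.31 to 3.39 in the other 7. Each main count is therefore given on 8 arrays and again on 7 arrays, without vector replicate 2. The Daxx probe set read 7.35, 7.36, 7.46 and 7.23 in the Daxx arrays and 7.34, 6.85, 7.27 and 7.16 in the vector arrays. The groups overlapped (p = 0.143, exact permutation over the arrays, two-sided, with 0.0286 the least possible). This check therefore did not tell the conditions apart. Of 14 fibroblast markers, 13 lay above the 95th percentile (6.07) of 1027 olfactory receptor genes, and Lum did not. The mean of the fibroblast markers ran from 9.33 to 9.46 in the Daxx arrays and from 9.70 to 9.72 in the vector arrays. Of the 14 markers, 1 was called higher and 5 lower. Markers of epithelium, endothelium and blood lay above that percentile for 3 of 7, 1 of 6 and 3 of 7 genes, and their array means were 6.15 to 6.29, 5.52 to 5.59 and 5.86 to 5.97 in the Daxx arrays and 6.13 to 6.52, 5.49 to 5.84 and 5.87 to 6.09 in the vector arrays. Of 6 pluripotency markers, 1 lay above it, with array means of 5.41 to 5.45 in the Daxx arrays and 5.33 to 5.73 in the vector arrays. Of 6 neural markers, 4 lay above it, with array means of 7.23 to 7.30 in the Daxx arrays and 7.03 to 7.40 in the vector arrays, and 2 were called higher on 8 arrays, Map2 (change 0.60, limma adjusted p = 0.0104) and Nes (change 0.50, adjusted p = 0.0230). The part of the fibroblast and neural markers in the results below was not tested.

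Mitosis and replication genes gave clear signals in both conditions, and few of them passed the test. The mean log2 signals of the 54 genes lay between 7.13 and 12.21, above the olfactory percentile of 6.07. The median over the 54 genes was 10.36, 10.39, 10.35 and 10.29 in the Daxx arrays and 10.33, 10.24, 10.36 and 10.37 in the vector arrays. On 8 arrays 2 of 54 genes were called (3.70%, beside 4.52% of all genes). These were Kif11, which fell, and Rfc3, which rose. Of all genes 1.8% were called higher and 2.73% lower. An unadjusted p below 0.05 was found for 12 of the 54 (22.2%, beside 15.4% of all genes). On 7 arrays 8 of 54 were called (14.8%, beside 12.8% of all genes), 2 higher and 6 lower, beside 5.26% and 7.57% of all genes. Neither share lay far from that of all genes. The Daxx and vector arrays did not overlap for 17 of the 54 genes on 8 arrays (31.5%, beside 14.8% of all genes and 20.6% of genes with a mean of at least 6), and for 21 on 7 arrays (38.9%, beside 24.4% and 32.3%). The median change of the 54 was 0.0025 on 8 arrays, where that of all genes was -0.028, and -0.022 on 7 arrays, where that of all genes was 0.015. For 53 of the 54 genes the 95% interval of the change on 8 arrays lay within 0.5 on either side of 0, which is less than 1.41-fold, and the same held for 83.3% of all genes. E2f1 was the exception.

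**Figure D1:**
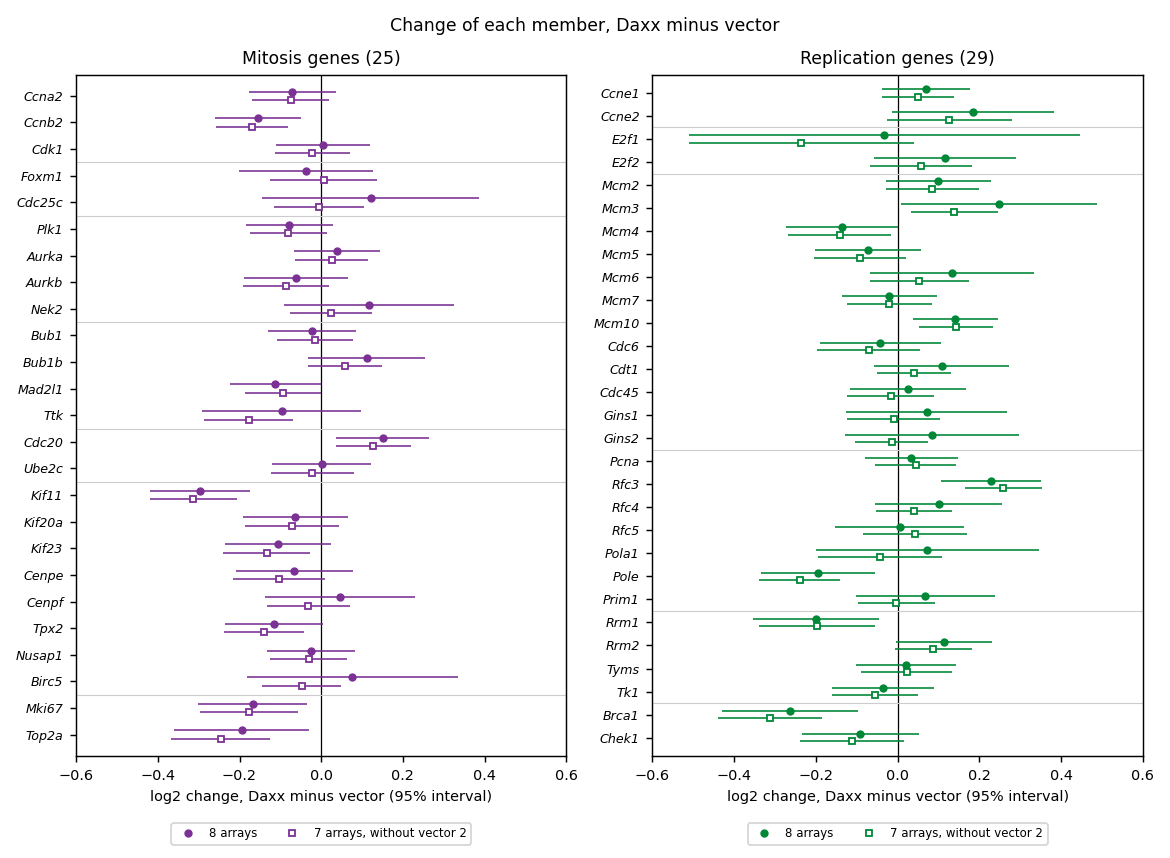
Change of each gene, Daxx minus vector on the log2 scale, with its 95% interval, for 25 mitosis genes (left) and 29 replication genes (right). Filled circles use 8 arrays and open squares use 7 arrays without vector replicate 2, and grey lines part the roles. Kif11 and Brca1 lie farthest below 0 and Mcm3 and Rfc3 farthest above, and E2f1 has the widest interval.

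Kif11, the kinesin that pushes the spindle poles apart, was the mitosis gene that fell. It read 11.59, 11.57, 11.54 and 11.44 in the Daxx arrays and 11.86, 11.78, 11.83 and 11.85 in the vector arrays. All Daxx arrays lay below all vector arrays. The means were 11.53 ± 0.0688 in Daxx and 11.83 ± 0.0355 in vector arrays (SD, n = 4 each), a change of -0.30 (SE 0.054, limma adjusted p = 0.0173), which is 1.23-fold lower. On 7 arrays the change was -0.31 (SE 0.048, adjusted p = 0.00175). The call was lost without vector replicate 1 (adjusted p = 0.0714), vector replicate 3 (0.0652), vector replicate 4 (0.0547), DaxxB replicate 1 (0.0583) or DaxxB replicate 2 (0.0626), while the change stayed between -0.32 and -0.26 whichever array was left out. Centring each array on its gene median also ended it (adjusted p = 0.0588, change -0.27).

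Rfc3, a subunit of the clamp loader that places the sliding clamp Pcna on DNA, was the replication gene that rose. It read 9.76, 9.80, 9.75 and 9.76 in the Daxx arrays and 9.51, 9.63, 9.46 and 9.55 in the vector arrays. The groups did not overlap. The means were 9.77 ± 0.0256 in Daxx and 9.54 ± 0.0706 in vector arrays (SD, n = 4 each), a change of 0.23 (SE 0.053, limma adjusted p = 0.0492), which is 1.17-fold. On 7 arrays the change was 0.26 (SE 0.042, adjusted p = 0.00255). The call on 8 arrays was close to the threshold, and leaving out any array other than vector replicate 2 ended it, with adjusted p values from 0.109 to 0.159 and changes from 0.20 to 0.24. Quantile normalization of the 8 arrays ended it as well (adjusted p = 0.115, change 0.21).

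Brca1, a DNA repair and checkpoint gene of the replication set, was called in the main fit on 7 arrays and not on 8. It read 9.09, 9.16, 8.97 and 9.07 in the Daxx arrays and 9.32, 9.19, 9.36 and 9.48 in the vector arrays. The groups did not overlap, and vector replicate 2 was the lowest vector array. The change was -0.26 (SE 0.073, limma adjusted p = 0.0913) on 8 arrays and -0.31 (SE 0.057, adjusted p = 0.00504) on 7, which is 1.24-fold lower. Other settings that kept all 8 arrays did call Brca1, namely quantile normalization, a filter on weak signals and array weights.

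Top2a, the topoisomerase that untangles sister chromatids, was also lower on 7 arrays. It read 11.74, 11.80, 11.59 and 11.66 in the Daxx arrays and 11.93, 11.73, 11.92 and 11.98 in the vector arrays. Vector replicate 2 fell among the Daxx arrays, and the other vector arrays lay above them. The change was -0.19 (SE 0.073, limma adjusted p = 0.225) on 8 arrays and -0.25 (SE 0.055, adjusted p = 0.0136) on 7.

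Pole, the catalytic subunit of the leading-strand polymerase epsilon, read 10.48, 10.47, 10.37 and 10.39 in the Daxx arrays and 10.67, 10.49, 10.67 and 10.66 in the vector arrays. The vector arrays other than replicate 2 were nearly equal, and replicate 2 lay just above the highest Daxx array. The change was -0.20 (SE 0.062, limma adjusted p = 0.136) on 8 arrays and -0.24 (SE 0.045, adjusted p = 0.00545) on 7. Outside the main fit, Pole was also called on 8 arrays after quantile normalization and with array weights.

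Ttk, the kinase Mps1 that starts the spindle checkpoint, and Ccnb2, cyclin B2, were the other genes that were lower on 7 arrays. Ttk read 8.67, 8.66, 8.62 and 8.59 in the Daxx arrays and 8.73, 8.48, 8.80 and 8.89 in the vector arrays. Its vector replicate 2 was the lowest of all 8 arrays, and the other vector arrays lay above every Daxx array. Its change was -0.10 (SE 0.086, limma adjusted p = 0.677) on 8 arrays and -0.18 (SE 0.049, adjusted p = 0.0385) on 7. Ccnb2 read 11.92, 11.88, 11.90 and 11.92 in the Daxx arrays and 12.09, 12.01, 12.07 and 12.05 in the vector arrays, so that here all vector arrays, replicate 2 included, lay above the Daxx arrays. Its change was -0.15 (SE 0.047, limma adjusted p = 0.121) on 8 arrays and -0.17 (SE 0.040, adjusted p = 0.0184) on 7. Outside the main fit, Ccnb2 was also called on 8 arrays with array weights and with a trended robust prior.

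Mcm10, which helps to activate the replicative helicase, was the second gene that was higher on 7 arrays. It read 9.097, 9.085, 9.122 and 9.104 in the Daxx arrays and 8.918, 8.964, 8.964 and 8.998 in the vector arrays. All Daxx arrays lay above all vector arrays, and vector replicate 2 lay within the range of the other vector arrays. The change was 0.14 on both sets of arrays, with a limma adjusted p of 0.151 on 8 arrays and 0.0467 on 7.

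**Figure D2:**
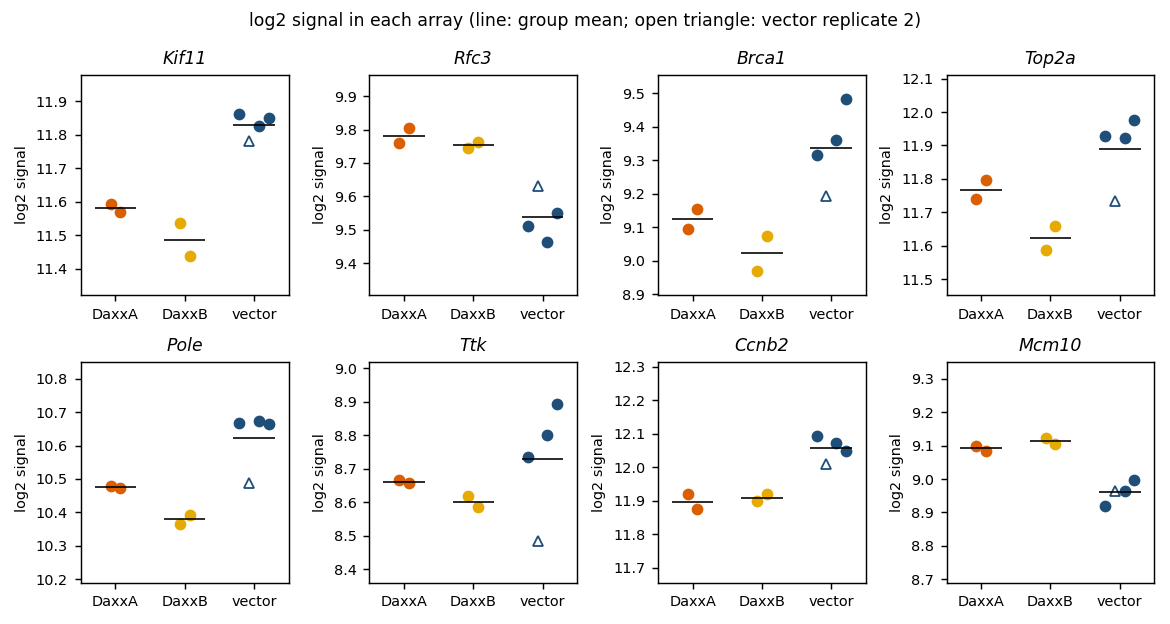
Log2 signal of the 8 genes called on 7 arrays, in each DaxxA, DaxxB and vector array, with a line at the mean of each group over all its arrays and an open triangle for vector replicate 2. Every panel spans the same number of log2 units. Vector replicate 2 lies nearest the Daxx arrays in Kif11, Rfc3, Brca1, Pole and Ccnb2, among them in Top2a, below them in Ttk, and with its own group in Mcm10.

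The promoters of genes from both waves are shown because mitosis and replication genes are known to be switched on through different short elements. The windows run from 250 bases before to 50 bases after the annotated start in RefSeq (GRCm38.p6), and are written 5′ to 3′ on the strand of the gene. Capitals mark a CHR element (TTTGAA, bound by MuvB complexes), a CCAAT box (CCAAT, bound by NF-Y) or an E2F element (TTCCCGC or TTGGCGC), in either orientation.
Kif11, chr19:37376132-37376431, plus strand: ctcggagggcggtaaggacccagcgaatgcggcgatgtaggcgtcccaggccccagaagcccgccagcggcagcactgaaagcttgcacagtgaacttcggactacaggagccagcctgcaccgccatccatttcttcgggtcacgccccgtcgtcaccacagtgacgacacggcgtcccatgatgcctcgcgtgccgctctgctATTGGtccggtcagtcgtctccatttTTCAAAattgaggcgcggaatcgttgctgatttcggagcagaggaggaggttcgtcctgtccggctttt
Top2a, chr11:99024140-99024439, minus strand: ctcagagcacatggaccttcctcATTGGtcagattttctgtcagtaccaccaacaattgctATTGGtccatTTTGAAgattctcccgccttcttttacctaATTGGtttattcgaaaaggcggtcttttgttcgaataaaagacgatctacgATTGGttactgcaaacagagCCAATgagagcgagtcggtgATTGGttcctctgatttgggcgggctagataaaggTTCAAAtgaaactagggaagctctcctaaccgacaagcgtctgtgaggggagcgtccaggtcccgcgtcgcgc
Ccnb2, chr9:70421505-70421804, minus strand: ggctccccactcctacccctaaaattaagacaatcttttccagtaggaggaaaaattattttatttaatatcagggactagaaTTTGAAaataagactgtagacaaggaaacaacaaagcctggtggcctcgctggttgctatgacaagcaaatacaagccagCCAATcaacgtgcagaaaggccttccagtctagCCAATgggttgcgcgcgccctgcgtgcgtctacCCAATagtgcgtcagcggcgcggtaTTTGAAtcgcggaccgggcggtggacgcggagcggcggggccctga
Rfc3, chr5:151651159-151651458, minus strand: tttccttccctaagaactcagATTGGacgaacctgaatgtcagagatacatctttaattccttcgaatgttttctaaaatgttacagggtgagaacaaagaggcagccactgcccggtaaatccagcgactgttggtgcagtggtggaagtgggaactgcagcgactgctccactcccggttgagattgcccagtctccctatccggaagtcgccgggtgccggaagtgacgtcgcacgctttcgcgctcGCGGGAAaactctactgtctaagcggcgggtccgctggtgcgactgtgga
Brca1, chr11:101551906-101552205, minus strand: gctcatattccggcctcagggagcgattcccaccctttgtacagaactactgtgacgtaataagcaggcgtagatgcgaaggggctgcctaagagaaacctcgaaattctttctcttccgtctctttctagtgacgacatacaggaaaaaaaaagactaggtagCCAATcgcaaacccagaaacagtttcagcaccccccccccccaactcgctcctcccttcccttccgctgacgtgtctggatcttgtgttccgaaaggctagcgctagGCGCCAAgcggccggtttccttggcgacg
The Kif11 window holds a CHR element 19 bases before the start and a CCAAT box 45 bases before it. Top2a has 2 CHR elements and 6 CCAAT boxes, and Ccnb2 has 2 CHR elements and 3 CCAAT boxes. Rfc3 and Brca1 each hold 1 E2F element near the start and 1 CCAAT box, and no CHR letters in these windows. The windows shown are a choice and not all of those found for called genes. Of those not shown, Mcm10 has 3 CCAAT boxes, 0 E2F elements and 0 CHR elements. Ttk has 1 CHR element, 2 CCAAT boxes and 0 E2F elements. Windows were found for 43 of the 54 genes, 45 windows in all. Pole was among the genes without one. A CHR element was present in 13 of 19 windows of mitosis genes (68.4%) and in 3 of 26 windows of replication genes (11.5%), beside 17.9% of all 32851 windows of this length. An E2F element was present in 2 of 19 mitosis windows (10.5%) and in 15 of 26 replication windows (57.7%), beside 6.81% of all windows. CCAAT boxes were present in 84.2% of mitosis windows, 65.4% of replication windows and 37.4% of all windows. The E2F form TTGGCGC can overlap a CCAAT box on the other strand, and a CHR element and a CCAAT box can share an end base. These matches describe letters and not binding.

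Most mitosis genes had a change below 0. On 8 arrays 9 lay above 0 and 16 below (36% above, beside 41.8% of all genes), with a median of -0.061. There was 1 call (4%, beside 4.52% of all genes). On 7 arrays 5 lay above and 20 below (20% above, beside 57.1% of all genes), with a median of -0.071. There were 4 calls, all lower (16%, beside 12.8% of all genes called in either direction and 7.57% called lower). Under other scalings the median stayed negative (-0.059 after quantile normalization and -0.039 with each array centred on its gene median). The 4 Daxx arrays lay wholly above the 4 vector arrays for 1 of 25 mitosis genes and wholly below for 7. Over all genes 8.02% lay wholly above and 6.79% wholly below, and 11.7% and 8.92% of genes with a mean of at least 6. On 7 arrays the counts were 1 and 11, beside 11.5% and 12.9% of all genes and 14.4% and 17.9% of genes with a mean of at least 6. The gene wholly above was Cdc20, the activator of the anaphase-promoting complex. It read 9.19, 9.19, 9.24 and 9.18 in the Daxx arrays and 9.09, 8.98, 9.03 and 9.10 in the vector arrays (change 0.15, limma adjusted p = 0.160).

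The group of 8 motor, kinetochore and spindle genes had 2 genes above 0 and 6 below on 8 arrays, and 0 above and 8 below on 7 arrays, of which only Kif11 was called. Over all 19938 genes, 8325 lay above 0 on 8 arrays and 11381 on 7. Shares of 4.52% and 12.8% of all genes were called. Their changes on 7 arrays ranged from -0.31 for Kif11 to -0.03 for Nusap1, a spindle microtubule binder. Tpx2, which activates Aurora A on the spindle, had a change of -0.14 (limma adjusted p = 0.0652 on 7 arrays), and Kif23, a motor of the cytokinesis midzone, one of -0.13 (adjusted p = 0.107). Cenpe and Cenpf of the kinetochore, Kif20a, a cytokinesis motor, and Birc5, survivin of the chromosomal passenger complex, had values of -0.10, -0.03, -0.07 and -0.05 on 7 arrays, none past the test. Mki67, the Ki-67 coat protein of mitotic chromosomes and a common marker of cycling cells, read 11.95, 12.00, 11.89 and 11.79 in the Daxx arrays and 12.12, 12.05, 12.07 and 12.07 in the vector arrays. These groups did not overlap, and the change of -0.17 on 8 arrays had a limma adjusted p of 0.187, and -0.18 on 7 arrays one of 0.0580.

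Cdk1 and the mitotic kinases were not called. Cdk1, the kinase that drives entry into mitosis, had a change of 0.0042 with a 95% interval from -0.11 to 0.12 on 8 arrays. Ccna2, cyclin A2, read 12.20, 12.21, 12.11 and 12.17 in the Daxx arrays and 12.26, 12.23, 12.23 and 12.25 in the vector arrays. The 2 groups of Ccna2 values did not overlap, but the change was -0.07 (limma adjusted p = 0.584). The mitotic kinases Plk1, Aurka, Aurkb and Nek2 ranged from -0.08 to 0.12 on 8 arrays and from -0.09 to 0.03 on 7, with 0 calls by limma in either set and 0 at an unadjusted p below 0.05. Of all genes, 4.52% were called on 8 arrays and 12.8% on 7, with 15.4% and 24.7% at an unadjusted p below 0.05. Plk1 and Aurka act on centrosomes and the spindle, and Aurkb corrects its attachments. Nek2, which parts the centrosomes, and Bub1b, a spindle checkpoint kinase-like protein, had changes of 0.12 and 0.11 on 8 arrays and of 0.02 and 0.06 on 7. Mad2l1, the checkpoint protein Mad2, had -0.11 and -0.09, and Bub1, a checkpoint kinase, -0.02 and -0.02. Foxm1, the transcription factor of the mitotic wave, had a change of -0.04 on 8 arrays and 0.01 on 7. Cdc25c, a phosphatase that activates Cdk1, had 0.12 and -0.0045, and Ube2c, the ubiquitin carrier of the anaphase-promoting complex, 0.00 and -0.02.

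For the replication genes, the sign of the median depended on vector replicate 2. On 8 arrays 19 lay above 0 and 10 below with a median of 0.068. On 7 arrays 14 lay above and 15 below with a median of -0.0028 (0.014 on 7 arrays after quantile normalization). Calls numbered 1 higher and 0 lower on 8 arrays, and 2 higher (Rfc3 and Mcm10) and 2 lower (Pole and Brca1) on 7, where 4.52% of all genes were called on 8 arrays and 12.8% on 7. The groups did not overlap for 5 of 29 genes above and 4 below on 8 arrays, beside 8.02% and 6.79% of all genes. Of genes with a mean of at least 6 these shares were 11.7% and 8.92%.

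The 12 origin licensing and helicase genes had 0 calls on 8 arrays by limma (2 at an unadjusted p below 0.05) and 1, Mcm10, on 7. Of all genes, 4.52% were called on 8 arrays and 12.8% on 7, and 15.4% had an unadjusted p below 0.05 on 8 arrays. Of the Mcm genes, which build the replicative helicase, Mcm3 showed the highest change. It read 10.36, 10.28, 10.38 and 10.29 in the Daxx arrays and 10.14, 9.75, 10.17 and 10.25 in the vector arrays. The Daxx arrays lay above the vector arrays, and vector replicate 2 was far below every other array. The change was 0.25 (SE 0.105, limma adjusted p = 0.300) on 8 arrays and 0.14 (adjusted p = 0.0960) on 7. Mcm4 lay the other way at -0.14 on both sets, with groups that did not overlap and limma adjusted p of 0.329 and 0.146. Mcm2 had a change of 0.10 on 8 arrays and 0.08 on 7, Mcm5 of -0.07 and -0.09, Mcm6 of 0.13 and 0.05, and Mcm7 of -0.02 on both, so the subunits of this helicase lay on both sides of 0. The licensing factors Cdc6 and Cdt1 had changes of -0.04 and 0.11 on 8 arrays and of -0.07 and 0.04 on 7. Cdc45, Gins1 and Gins2, which complete the helicase, had 0.02, 0.07 and 0.08 on 8 arrays and -0.02, -0.01 and -0.01 on 7, none past the test. In this group 8 genes lay above 0 and 4 below on 8 arrays (median 0.078), and 5 above and 7 below on 7 arrays (median -0.012), so the sign of its median also depended on vector replicate 2.

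In the clamp, loader and polymerase group, the loader subunits Rfc4 and Rfc5 were not called, with changes of 0.10 and 0.00 on 8 arrays and 0.04 and 0.04 on 7. Pcna, the sliding clamp, had a change of 0.03 (95% interval -0.08 to 0.15). Pola1 and Prim1 of the primase complex had changes of 0.07 and 0.07 on 8 arrays and of -0.04 and -0.0028 on 7.

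In the supply of nucleotides, the 2 subunits of ribonucleotide reductase lay on opposite sides of 0. Rrm1, the large subunit, read 11.76, 11.87, 11.61 and 11.62 in the Daxx arrays and 11.91, 11.92, 11.93 and 11.90 in the vector arrays. The 4 vector arrays lay close together and above all Daxx arrays, of which the DaxxB arrays were lower (change -0.20, limma adjusted p = 0.169 on 8 arrays and 0.0748 on 7). Rrm2, the small subunit, had a change of 0.11 on 8 arrays and 0.09 on 7, with groups that did not overlap and adjusted p of 0.343 and 0.233. Tyms, thymidylate synthase, and Tk1, thymidine kinase, had changes of 0.02 and -0.04 on 8 arrays.

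The regulators of S phase entry were not called. Ccne1 and Ccne2, the E cyclins, had changes of 0.07 and 0.18 on 8 arrays and of 0.05 and 0.13 on 7. E2f1, an activator of S phase genes, read 9.75, 9.36, 9.98 and 9.45 in the Daxx arrays and 9.96, 9.06, 9.83 and 9.83 in the vector arrays. Arrays of both groups were widely spread, and the change of -0.03 on 8 arrays had a 95% interval from -0.51 to 0.45. Without vector replicate 2, its lowest array, the change was -0.24 with an interval from -0.51 to 0.04 (limma adjusted p = 0.280). E2f2, a related activator, read 7.16, 7.23, 7.12 and 7.23 in the Daxx arrays and 7.16, 6.90, 7.01 and 7.21 in the vector arrays, with overlapping groups (change 0.12, limma adjusted p = 0.580). Chek1, the checkpoint kinase that guards stalled forks, had a change of -0.09 on 8 arrays and -0.11 on 7, with limma adjusted p of 0.599 and 0.273.

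**Figure D3:**
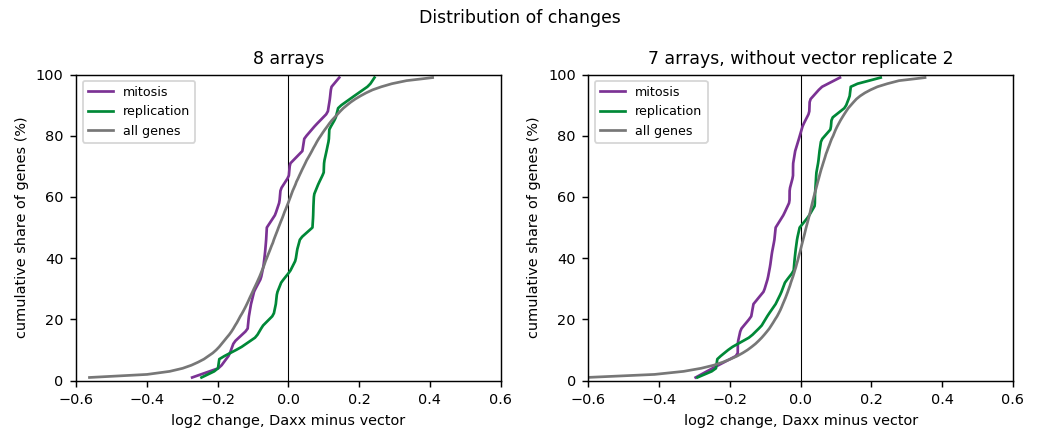
Cumulative share of genes (percent) by log2 change, Daxx minus vector, for mitosis genes, replication genes and all genes, on 8 arrays (left) and on 7 arrays without vector replicate 2 (right). The curve of mitosis genes reaches 50% at -0.061 and -0.071, that of replication genes at 0.068 and -0.0028, and that of all genes at -0.028 and 0.015.

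DaxxA and DaxxB were set against the same vector arrays, in a fit of 3 groups. For DaxxA minus vector 0 of 54 genes were called on 8 arrays by limma (1.97% of all genes were), and 6 had an unadjusted p below 0.05 (11.1%, beside 11.4% of all genes). For DaxxB minus vector 2 were called (3.70%, beside 2.69% of all genes), Kif11 at -0.34 (adjusted p = 0.0297) and Rrm1 at -0.30 (adjusted p = 0.0441), beside 0.767% of all genes called higher and 1.92% lower. On 7 arrays 7 genes were called for DaxxA (13%, beside 11.3% of all genes) and 14 for DaxxB (25.9%, beside 20.5% of all genes). The DaxxA calls were Ccne2 and Rfc3 higher and Ccnb2, Kif11, Top2a, Pole and Brca1 lower, beside 4.46% of all genes higher and 6.8% lower. The DaxxB calls were Mcm10 and Rfc3 higher and Ccnb2, Ttk, Kif11, Cenpe, Tpx2, Mki67, Top2a, Mcm4, Pole, Rrm1, Brca1 and Chek1 lower, beside 10.9% of all genes higher and 9.53% lower.

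More calls against vector do not show that DaxxB differed from DaxxA, and the test of that difference called no gene of the set. For DaxxA minus DaxxB limma called 0 of 54 on 8 arrays (0 of all genes, 0%), with 2 at an unadjusted p below 0.05 (3.70%, beside 4.24% of all genes), and 0 on 7 arrays (2.15% of all genes), with 10 at an unadjusted p below 0.05 (18.5%, beside 22.3% of all genes). Ccne2 had the largest difference on 7 arrays. It read 9.44 and 9.56 in the DaxxA arrays and 9.31 and 9.26 in the DaxxB arrays, a difference of 0.21 with an adjusted p of 0.0844. Rrm1 read 11.76 and 11.87 in the DaxxA arrays and 11.61 and 11.62 in the DaxxB arrays, a difference of 0.20 with an adjusted p of 0.0786. On 8 arrays 21 genes lay below vector in both, 23 above in both and 10 on opposite sides. On 7 arrays the counts were 28, 14 and 12, so which side held more genes depended on vector replicate 2, and both changes share the vector arrays.

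**Figure D4:**
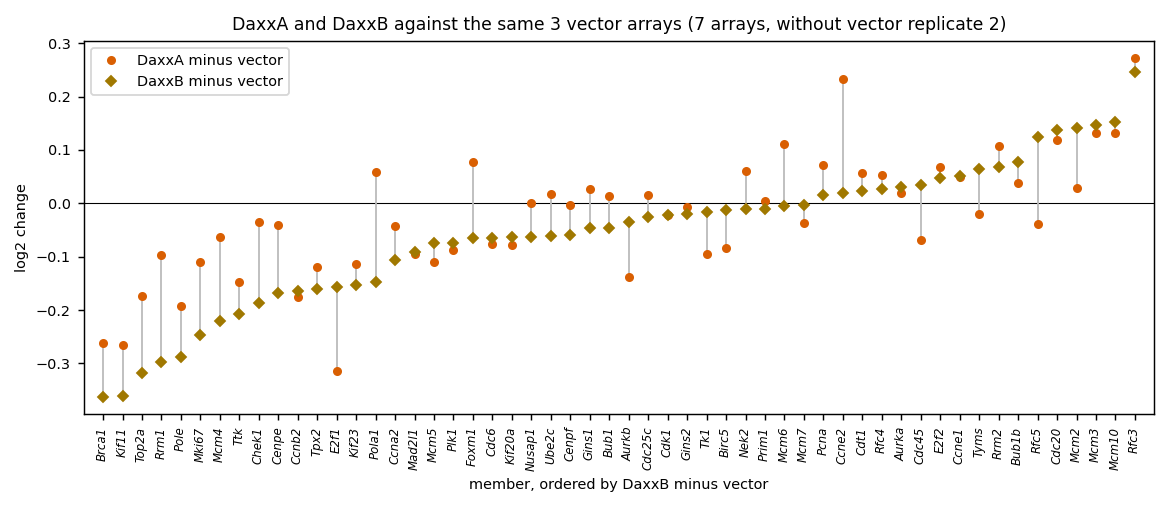
Log2 change of each of the 54 genes in DaxxA minus vector (circles) and DaxxB minus vector (diamonds) on 7 arrays, ordered by the DaxxB change. The same 3 vector arrays enter both changes. Brca1 and Kif11 stand at the low end in DaxxB and Rfc3 at the high end in both, and Ccne2 shows a DaxxA change of 0.23 beside a DaxxB change of 0.02.

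Vector replicate 2 was the lowest of the 4 vector arrays for 41 of the 54 genes (75.9%, beside 39.2% of all genes) and the lowest of all 8 arrays for 26 (48.1%, beside 29.4% of all genes). Its difference from the mean of the other vector arrays had a median of -0.099 over the 54 genes and 0.042 over all genes. It ran from -0.81 for E2f1 to 0.17 for Foxm1. The shares and median over all genes include weak genes, where this array read high: the median difference was 0.497 at a mean log2 signal of 4 to 5. At 9 to 10 the median was -0.194 over 15 of the 54 genes and -0.17 over all genes. At 10 to 11 these were -0.102 (14 genes) and -0.108, and at 11 to 12 -0.0225 (17 genes) and -0.0521. At 8 to 9 they were -0.41 (4 genes) and -0.219. At 7 to 8 and 12 to 13, with 2 genes each, they were -0.276 beside -0.0969 and -0.128 beside -0.0197. Whether this array differs by its RNA, its hybridisation or its cells was not tested.

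**Figure D5:**
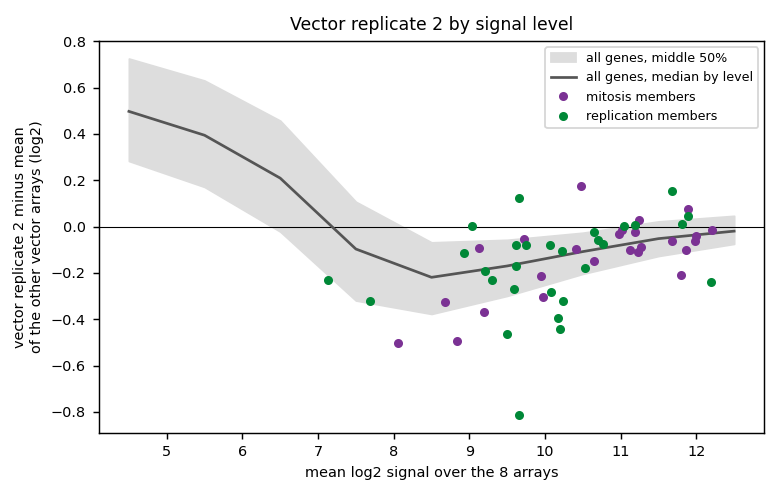
Difference of vector replicate 2 from the mean of the other vector arrays (log2) against the mean log2 signal over the 8 arrays, for the mitosis genes and the replication genes, with the median and the middle 50% of all genes by level. Most of the 54 genes lie below 0, E2f1 at -0.81 the farthest.

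Around these genes, 12 lists of related genes that are not members were read in the same fit, with 173 of 177 entries matched. The remaining entries were not analysed here. On 8 arrays 4 of 173 were called (2.31%, beside 4.52% of all genes), 3 higher and 1 lower. On 7 arrays 11 were higher and 25 lower (20.8%, beside 12.8% of all genes). Ccnd1, cyclin D1, which carries growth signals into the cycle, read 11.38, 11.30, 11.31 and 11.32 in the Daxx arrays and 11.08, 11.09, 11.10 and 11.10 in the vector arrays. Every Daxx array lay above every vector array, and the change was 0.23 (SE 0.046, limma adjusted p = 0.0250). Cdkn2c, the inhibitor p18 of the cyclin D kinases, read 9.31, 9.21, 9.32 and 9.20 in the Daxx arrays and 9.67, 9.54, 9.58 and 9.73 in the vector arrays. The groups were apart, with a change of -0.37 (SE 0.062, limma adjusted p = 0.0114), which is 1.29-fold lower.

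Of 8 early growth response genes, all lay above 0 on both sets of arrays. Of all 19938 genes, 8325 did on 8 arrays and 11381 on 7. In this list 2 genes were called higher on 8 arrays (beside 1.8% of all genes) and 4 on 7 (beside 5.26%). Jun, a subunit of the AP-1 factor, read 10.32, 10.24, 10.33 and 10.28 in the Daxx arrays and 9.98, 9.72, 9.94 and 9.99 in the vector arrays. It rose by 0.38 (SE 0.070, limma adjusted p = 0.0175). Ier3, an immediate early gene, read 7.36, 7.31, 7.33 and 7.42 in the Daxx arrays and 6.99, 6.96, 6.96 and 7.01 in the vector arrays, a rise of 0.38 (SE 0.049, adjusted p = 0.00317). Both groups were apart without overlap. Fosb and Egr1 were the others called on 7 arrays, at 0.18 and 0.19.

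The G1 list, which holds Ccnd1, had 1 of 9 genes higher and 0 lower on 7 arrays, and the CDK inhibitors 0 of 7 higher and 2 lower. The other 9 lists had 0 calls on 8 arrays by limma (35 of 149 genes at an unadjusted p below 0.05, which is 23.5%, beside 15.4% of all genes), and for each the 2 genes with the smallest adjusted p on 8 arrays are named below. Among the pocket proteins, other E2F and MuvB genes 0 of 17 were higher and 3 lower on 7 arrays, with Rbl2, the pocket protein p130 of resting cells, at -0.36 and Tfdp1, the partner of E2F, at -0.24. Among the kinetochore genes 1 of 21 was higher and 4 lower, with Dsn1 at -0.22 and Zwilch at -0.18. In cohesin and condensin 1 of 18 was higher and 3 lower, with Smc4, a condensin core subunit, at -0.26, and Pttg1, securin, at 0.20. Origin recognition and initiation had 0 of 17 higher and 3 lower, with Ticrr, which helps to load Cdc45, at -0.29 and Gins4 at -0.18. Other fork genes had 1 of 24 higher and 2 lower, with Asf1b, a histone chaperone, at -0.22 and Pole2 at 0.15. Mitotic motors and cytokinesis genes had 2 of 21 higher and 3 lower, with Ckap2 at -0.25 and Ect2, which sets the cleavage furrow, at -0.21. The G2 checkpoint list had 0 of 9 higher and 2 lower, with Wee1, the kinase that holds Cdk1 inactive, at -0.33 and Topbp1 at -0.15. In the anaphase-promoting complex 0 of 14 were higher and 1 lower, Cdc16 at -0.25, beside Cdc27 at -0.10 (not called). Other nucleotide enzymes had 1 of 8 higher and 2 lower, with Samhd1, which breaks down nucleotides, at -0.18 and Dck, deoxycytidine kinase, at -0.34. All values in these 9 lists are limma changes on 7 arrays. Beside the counts of each list on 7 arrays, 5.26% of all genes were called higher and 7.57% lower.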

How the data were processed

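Total RNA of 8 fibroblast samples was labelled with biotin and put on Affymetrix arrays, per the labels' protocols. The submitters' processing notes name Affymetrix Expression Console and RMA as the tools by which the authors made the deposited log2 signals. RMA subtracts background, sets the arrays to a common distribution and combines probes, so it compresses small differences of weak signals and hides a shift shared by most genes. The deposited signals nevertheless differed in distribution, with an interquartile range of 2.79 in vector replicate 2 against 3.31 to 3.39 in the other arrays. The reason was not tested. Versions of this software are not given in the sources used. The number of arrays limits the precision.

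Of 35556 probe sets, 21789 had 1 gene symbol in the platform annotation, 1621 had several and 12146 had none listed. The brightest probe set on average was kept for each of 19938 genes, which set aside 1851. Groups came from the source names (Daxx or vector) and titles (DaxxA, DaxxB). limma 3.58.1 in R 4.3.3 (lmFit, eBayes) was fitted to all genes, with 2 conditions for Daxx minus vector and 3 groups otherwise, with Benjamini-Hochberg adjustment over all genes and a threshold of 0.05. The fit was tested on simulated data. Alternatives were leaving out each array, quantile normalization, centring, a filter on weak signals (mean of at least 6), array weights, a trended robust prior, the replicate number as a block, a mean over all probe sets of a gene, a fit of 3 groups and a threshold of 0.1. Leaving out vector replicate 2 together with quantile normalization was chosen after seeing the data.

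The members and lists were chosen with earlier results of these data known. Values of each array are given for members called on 8 or 7 arrays and for those at the extremes of change and level. Cdc20, Mki67, E2f1 and the genes named for a difference between DaxxA and DaxxB were chosen after their values were seen. Promoter windows came from RefSeq (GRCm38.p6), and 3 motifs were searched on both strands.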

Additional observations from a re-analysis of the deposited data

Results flagged for a closer look

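In groups of 4 arrays, a value was picked out when its gap to the nearest array took a larger part of the range of the group than Dixon's 95% critical value, which chance gives in about 1 of 20 groups. This held for 9 of 54 genes in the vector arrays, each time at vector replicate 2, and over all genes for 25.1% in the vector arrays and 4.61% in the Daxx arrays. Vector replicate 2 was low for E2f1 (9.06), Aurkb (11.08), Nek2 (8.86), Cenpf (9.72), Birc5, an inhibitor of apoptosis in the chromosomal passenger complex (8.43), Gins2 (9.83), Rfc4 (11.96) and Pole (10.49), and high for Rfc5 (11.79). In the Daxx arrays 1 gene was picked out, Pcna, where DaxxA replicate 2 was high at 11.98.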

How the results depend on the processing

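The number of genes called of 54 moved with the settings. For Daxx minus vector it was 2 (beside 4.52% of all genes). Leaving out 1 array gave 0 to 8, with 8 only without vector replicate 2 (beside 12.8% of all genes). It was 13 with array weights, 11 without vector replicate 2 after quantile normalization, 4 with a trended robust prior, 1 with each array centred on its gene median and 1 in the fit of 3 groups. On 8 arrays it was 3 after quantile normalization and 3 with the filter on weak signals. The count at a threshold of 0.1 is not reported here. The array weight of vector replicate 2 was 0.0521, where the other arrays had 0.9775 to 2.978, so that setting nearly left it out. For DaxxA minus vector it was 0, and leaving out 1 array gave 0 to 7, with 1 after quantile normalization, 1 with the filter on weak signals, 7 with array weights, 2 with the trended robust prior and 7 without vector replicate 2 after quantile normalization. For DaxxB minus vector it was 2, and leaving out 1 array gave 0 to 14, with 4 after quantile normalization, 0 after centring, 15 with array weights, 5 with the trended robust prior and 15 without vector replicate 2 after quantile normalization. The cause was not tested. Shares of all genes are given in this report for the 8 and 7 arrays only. Counts under the other settings are therefore not read as results about the 54 genes. DaxxA minus DaxxB gave 0 calls in every setting run. The median change over the 54 genes stayed between -0.022 and 0.025. Of 813 values of single genes under 16 settings, 31 gained and 16 lost a call and 0 called changes turned direction, while 52 changes that were not called changed sign, in 18 genes. With the replicate number as a block, the calls were 0 for Daxx minus vector and 0 for DaxxB minus vector, and 162 over all genes for Daxx minus vector, where 902 were called without it. Deviations of arrays of the same number correlated at 0.0238 to 0.162, all above 0. With 2 arrays in DaxxA and in DaxxB, the deviations within each mirror one another. This check therefore could not decide whether the numbers are pairs. The main fit did not use the numbers, and its calls did not hold with the block. In the fit with the block, vector replicates 3 and 4 had no Daxx array of the same number and so did not enter the contrast. Whether the calls were lost to pairing or to the fewer arrays was not tested. The arrays number 4 against 4, and 2 in DaxxA and in DaxxB, which limits what can be called, and weak signals have no detection calls here.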

Other observations

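The list genes that are not members were not spread evenly over the chromosomes in their calls, which was noticed after the values were seen. Chromosome 8 holds 15 of the 173, and 8 of these were lower in Daxx arrays on 7 arrays by limma (Rbl2, Tfdp1, Cdc16, Ckap2, Gins3, Gins4, Asf1b and Rnaseh2a), with a median change of -0.18. On 8 arrays 0 of the 15 were called lower, with a median change of -0.16, and 5.45% of the genes of chromosome 8 with a mean log2 signal of at least 6 were called lower, below the 6.71% of chromosome 16 and the 6.44% of chromosome 3, so the pattern of calls appeared when vector replicate 2 was left out. Among all genes with a mean log2 signal of at least 6, the share called lower on 7 arrays was 19.8% on chromosome 8 and 19.5% on chromosome 3, and 3.98% on chromosome 12. The 3 members on chromosome 8 (Mcm5, Cdt1 and Gins2) had 0 calls, with changes of -0.09, 0.04 and -0.01 on 7 arrays.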
